A study of Mus musculus with 8 samples.

Results

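The 9 genes Tnnc1, Tnni1, Tnnt2, Actc1, Myl7, Myl4, Acta2, Tpm1 and Actn2 encode parts of the sarcomere, the contractile unit of heart and skeletal muscle. They were identified by gene symbol, and 14 probe sets of the array carried exactly 1 of these symbols, among 17097 genes with such a probe set. In a sarcomere, myosin of the thick filament pulls on actin of the thin filament, and tropomyosin and the troponin complex on the actin open or close the binding sites as calcium changes. Alpha-actinin holds the thin filaments in the Z-disc. In the mouse embryo these genes come on as mesoderm cells of the cardiac crescent turn into heart muscle, and several of them are also used by smooth muscle, by skeletal muscle or by cells that are not muscle.

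The values came from 8 arrays of amplified RNA, each from 50 sorted living cells of gastrulating mouse embryos. Mesp1_H2BGFP+ cells (GFP+) and Mesp1_H2BGFP- cells (GFP-) were collected at embryonic day (E) 7.5 and at E6.5, with 2 arrays in each of these 4 groups, numbered replicate 1 and 2. All embryos were Mesp1-rtTA/Teto-H2B-GFP, so both fractions came from the same genotype: a transactivator driven by Mesp1, a gene of the earliest mesoderm and of heart progenitors, switches on a nuclear GFP. GFP stands for the activity of this system and not for Mesp1 itself, the labels name no inducer or dose, and neither fraction was sorted for a single cell type. In such bulk samples fewer cells of a type and less RNA per cell cannot be told apart.

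All levels below are the authors' RMA values on the log2 scale, in which 1 unit is a doubling. They compare a gene between arrays and say nothing of 1 gene's level against another's. The median of all deposited values, 4.38, served as the filter value: genes above it on 2 or more of the 8 arrays were tested, 11706 in all. Differences were tested with limma on all 8 arrays, with Benjamini-Hochberg adjustment over these genes and a threshold of 0.05, and are given with the standard error (SE) or the 95% confidence interval of the fit. The array medians were 4.20 to 4.23 in replicate 1 and 4.54 to 4.59 in replicate 2, so differences within each replicate number are also given. Whether RMA was run on all 8 arrays together is not given in the sources used here, and the single filter value and any overlap of groups compare values across this offset. Nothing in the labels says that the replicates came from separate litters, and the p-values measure only the spread between these arrays.

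Of the 9 genes, 8 passed this filter. Tnnt2 lay below the filter value on all 8 arrays with both of its probe sets. Tnnc1 passed only through the 2 GFP+ E7.5 arrays, where it was high, and Actn2 only through the 4 replicate 2 arrays. Mesp1, the gene behind the reporter, had a difference between GFP+ and GFP- cells of 0.79 at E7.5 (limma adjusted p = 1.00) and of 3.94 at E6.5 (limma adjusted p = 0.0209), with GFP+ above GFP- within both replicate numbers at both stages. Of 12 heart progenitor markers, 12 passed the filter, but Nkx2-5 and Mef2c, both regulators of early heart muscle, lay above the filter value on 4 arrays each, the replicate 2 arrays.

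Promoter sequences are given for the most variable members, Tnnc1, Tnni1, Actc1 and Myl7, and no motif marked below was found in all of them. The windows below are 300 bases long, end at base 50 counted from a RefSeq transcription start (GRCm38.p6) and read 5′ to 3′ on the gene's strand. Capitals mark 3 motifs found on either strand: the CArG box, which binds serum response factor (SRF), GATAA, bound by GATA factors, and CATTCC, bound by TEAD factors. The windows are chr14:31208062-31208361 (+) for Tnnc1, chr1:135799171-135799470 (+) for 1 of 2 overlapping Tnni1 starts, chr2:114052826-114053125 (-) for Actc1 and chr11:5898733-5899032 (-) for Myl7.
Tnnc1: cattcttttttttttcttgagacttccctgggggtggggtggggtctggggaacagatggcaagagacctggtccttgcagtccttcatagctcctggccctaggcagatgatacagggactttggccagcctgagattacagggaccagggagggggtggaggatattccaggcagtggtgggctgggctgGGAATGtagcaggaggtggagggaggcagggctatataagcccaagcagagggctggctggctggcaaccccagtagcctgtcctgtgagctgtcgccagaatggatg
Tnni1: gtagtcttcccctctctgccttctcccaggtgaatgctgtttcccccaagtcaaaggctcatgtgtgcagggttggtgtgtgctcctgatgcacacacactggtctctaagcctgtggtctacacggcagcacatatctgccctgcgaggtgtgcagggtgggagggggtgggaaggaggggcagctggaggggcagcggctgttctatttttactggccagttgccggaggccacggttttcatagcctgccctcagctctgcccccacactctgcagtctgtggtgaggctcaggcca
Actc1: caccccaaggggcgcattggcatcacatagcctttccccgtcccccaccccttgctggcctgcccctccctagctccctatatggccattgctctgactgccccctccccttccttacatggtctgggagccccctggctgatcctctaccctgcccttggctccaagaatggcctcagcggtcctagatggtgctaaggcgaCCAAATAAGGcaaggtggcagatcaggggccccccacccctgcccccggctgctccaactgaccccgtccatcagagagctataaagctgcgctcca
Myl7: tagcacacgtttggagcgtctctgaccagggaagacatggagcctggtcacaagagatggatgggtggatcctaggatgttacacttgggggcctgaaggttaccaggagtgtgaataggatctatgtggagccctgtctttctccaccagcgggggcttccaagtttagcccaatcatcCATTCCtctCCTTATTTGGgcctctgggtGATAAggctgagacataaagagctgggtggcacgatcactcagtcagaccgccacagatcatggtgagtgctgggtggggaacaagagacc

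Positions count from 1 at the annotated start, with -1 just before it. Actc1 and Myl7 each held 1 CArG box, CCAAATAAGG at -47 to -38 and CCTTATTTGG at -61 to -52, and each of these is the other's reverse complement. Myl7 also held CATTCC at -70 to -65 and GATAA at -41 to -37, and Tnnc1 had CATTCC on the other strand at -58 to -53. The Tnni1 window held 0 of the 3 marked motifs. The 11 RefSeq windows of the 9 genes included these 2 with a CArG box, against 1.63% of 32851 promoter windows of the same length. Only the exact pattern CCWWWWWWGG, with W for A or T, was counted as a CArG box. Windows without a counted CArG box can still hold a near match, as did that of Acta2 (CCTTGTTTGG). GATAA was in 3 windows (25.4% of all windows), CATTCC in 5 (14.7%), the E-box CANNTG in 10 (72.3%) and the MEF2 motif in 0 (3.19%). TATAAA was in 1 (13.6%), that of Actc1, at 34 to 39, after the annotated start. All positions hold for the annotated starts, and whether transcription began there in these cells was not tested. Matches are a description of the letters in these windows and not of binding.

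Troponin is the calcium switch of the thin filament, and its genes did not share 1 pattern. Tnnc1 encodes troponin C, the calcium-binding subunit of cardiac and slow skeletal muscle. It was at 6.52 and 8.18 on the GFP+ E7.5 arrays (replicates 1 and 2), against 4.24 and 3.76 in GFP- E7.5 cells, 4.02 and 3.59 in GFP+ E6.5 cells and 4.29 and 3.97 in GFP- E6.5 cells. Only the GFP+ E7.5 arrays lay above the filter value, and neither overlapped any other array. The other 3 groups lay within 1 unit of each other and overlapped. The difference between GFP+ and GFP- cells at E7.5 was 3.35 (SE 0.54, 95% interval 2.07 to 4.62), 2.28 within replicate 1 and 4.41 within replicate 2. It did not pass the threshold (limma adjusted p = 1.00), and 0 genes did in this comparison. Since the other groups lay below the filter value, the size of this difference is uncertain, and since the GFP+ E7.5 arrays alone brought Tnnc1 past the filter, its fit is not independent of the filter.

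**Figure D1:**
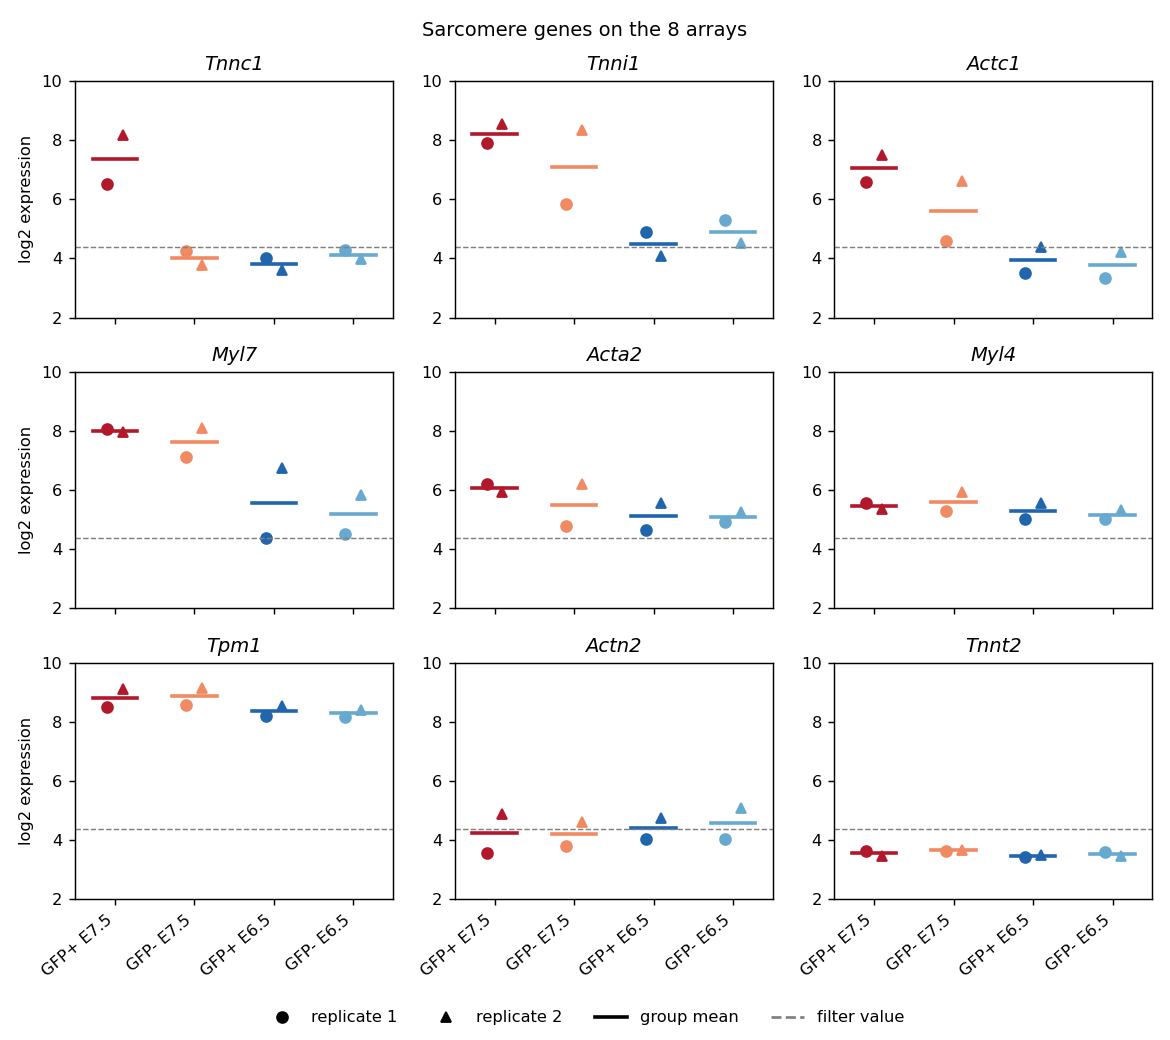
Log2 expression (vertical axis) of the 9 sarcomere genes in the 4 groups, with circles for replicate 1, triangles for replicate 2, bars for group means and a dashed line at the filter value of 4.38. Tnnc1 is above the line only in GFP+ E7.5 cells, Tnni1, Actc1 and Myl7 are highest at E7.5, and Tnnt2 is below the line throughout.

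Tnni1 encodes slow skeletal troponin I, the inhibitory subunit used by the embryonic heart before the cardiac form. It was at 7.90 and 8.54 in GFP+ E7.5 cells, 5.84 and 8.35 in GFP- E7.5 cells, 4.90 and 4.07 in GFP+ E6.5 cells and 5.29 and 4.52 in GFP- E6.5 cells. Both E7.5 groups lay above both E6.5 groups, and within E7.5 the fractions overlapped, with GFP- replicate 2 close to the GFP+ arrays and GFP- replicate 1 well below them. The difference between stages was 3.74 in GFP+ cells (SE 0.79, 3.00 and 4.47 within the replicates, limma adjusted p = 0.430) and 2.18 in GFP- cells (SE 0.79, 0.55 and 3.82, limma adjusted p = 0.631). Without GFP- E7.5 replicate 1 the value in GFP- cells was 3.44 and without GFP- E7.5 replicate 2 it was 0.93. The cardiac form Tnni3 was above the filter value on 1 array, GFP+ E7.5 replicate 1 (4.86).

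Tnnt2 encodes cardiac troponin T, the subunit that ties the complex to tropomyosin and a common marker of heart muscle cells. Its 2 probe sets gave 3.43 to 3.67 and 2.90 to 3.70 over the 8 arrays. No group reached the filter value, and with such levels a difference between groups could not be measured. The slow skeletal troponin T gene Tnnt1 was above the filter value on all 8 arrays, at 5.96 and 5.34 in GFP+ E7.5 cells, against 5.28 and 5.33 in GFP+ E6.5 cells. In GFP- cells it was at 5.19 and 5.25 at E7.5 and at 6.24 and 5.83 at E6.5, its highest group mean.

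Both alpha-actins of the list were highest on average in GFP+ E7.5 cells. Actc1, the main actin of the heart, was at 6.60 and 7.51 in GFP+ E7.5 cells, 4.60 and 6.63 in GFP- E7.5 cells, 3.51 and 4.40 in GFP+ E6.5 cells and 3.32 and 4.21 in GFP- E6.5 cells. The stages did not overlap in either fraction, the E7.5 fractions overlapped narrowly (GFP+ replicate 1 at 6.60 and GFP- replicate 2 at 6.63), and the E6.5 fractions overlapped too. The stage difference in GFP+ cells was 3.10 (SE 0.72, 95% interval 1.40 to 4.79), with 3.08 and 3.11 within the replicates, although it did not pass the threshold (limma adjusted p = 0.509, or 0.105 with the replicate number as a block). In GFP- cells it was 1.85 (SE 0.72, 1.28 and 2.42 within the replicates). The E6.5 means of 3.96 (GFP+) and 3.77 (GFP-) lay below the filter value, so these sizes are uncertain.

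Acta2, the smooth muscle alpha-actin that early heart cells also use, was at 6.22 and 5.95 in GFP+ E7.5 cells, 4.78 and 6.21 in GFP- E7.5 cells, 4.66 and 5.57 in GFP+ E6.5 cells and 4.92 and 5.26 in GFP- E6.5 cells. The GFP+ E7.5 arrays lay above all 4 E6.5 arrays, and the E7.5 fractions overlapped, as did the E6.5 fractions. The stage difference in GFP+ cells was 0.97 (SE 0.53, 95% interval -0.28 to 2.22). The other Acta2 probe set lay at 3.51 to 4.34, below the filter value on all 8 arrays. The cytoplasmic actin genes Actb and Actg1 differed by -0.02 and -0.06 between the stages in GFP+ cells.

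Myosin light chains brace the lever arm of the myosin head, and Myl7 and Myl4 encode the regulatory and the essential chain of the atrium, both of which are used throughout the early heart tube. Myl7 was at 8.07 and 7.96 in GFP+ E7.5 cells, 7.14 and 8.12 in GFP- E7.5 cells, 4.37 and 6.74 in GFP+ E6.5 cells and 4.54 and 5.85 in GFP- E6.5 cells. Every E7.5 array was above every E6.5 array, and the fractions overlapped at both stages. The stage difference was 2.46 in GFP+ cells (SE 0.80, 3.70 and 1.22 within the replicates, limma adjusted p = 0.987) and 2.44 in GFP- cells (SE 0.80, 2.60 and 2.27, limma adjusted p = 0.577). With the replicate number as a block (SE 0.55) the limma adjusted p was 0.314 in GFP+ and 0.179 in GFP- cells, and neither passed. Leaving out GFP+ E6.5 replicate 1 gave 1.28 in GFP+ cells and leaving out GFP+ E6.5 replicate 2 gave 3.65. On the same GFP+ E6.5 arrays the 4 tested extraembryonic and lateral mesoderm markers averaged 4.87 in replicate 1 and 6.32 in replicate 2, with Foxf1 (4.03 and 7.72) and Hand1 (6.26 and 8.32) higher in replicate 2 and Ahnak (4.47 and 3.86) lower. On the GFP- E6.5 arrays the mean of these 4 markers was 4.90 and 5.01, while Myl7 was at 4.54 and 5.85. Over the 4 groups Myl7 was higher in replicate 2 by 1.14 on average, and in 3 of them. The part of these markers' cells in the Myl7 level was not tested.

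Myl4 stayed between 5.01 and 5.95 on all 8 arrays. Its group means were 5.48 in GFP+ E7.5, 5.62 in GFP- E7.5, 5.30 in GFP+ E6.5 and 5.17 in GFP- E6.5 cells, and the groups of each comparison made here overlapped. The stage difference was 0.18 in GFP+ cells (95% interval -0.67 to 1.02) and 0.44 in GFP- cells (95% interval -0.40 to 1.29), so a change of the size seen for Myl7 in either fraction (2.46 and 2.44) lay outside these intervals. Myl4's second probe set was below the filter value on all 8 arrays.

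Tpm1, which encodes alpha-tropomyosin and is used by many cells that are not muscle, was well above the filter value on every array. The probe set used gave 8.52 and 9.12 in GFP+ E7.5 cells, 8.58 and 9.16 in GFP- E7.5 cells, 8.22 and 8.53 in GFP+ E6.5 cells and 8.18 and 8.41 in GFP- E6.5 cells. The stage difference was 0.45 in GFP+ cells (SE 0.36) and 0.58 in GFP- cells (SE 0.36), and the other 2 probe sets gave 0.77 and 0.68 in GFP+ cells and 0.49 and 0.41 in GFP- cells. The fractions differed by -0.05 at E7.5 and 0.08 at E6.5.

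Actn2, the alpha-actinin of the muscle Z-disc, split by replicate number and not by group. It was at 3.58 and 4.89 in GFP+ E7.5 cells, 3.81 and 4.63 in GFP- E7.5 cells, 4.05 and 4.77 in GFP+ E6.5 cells and 4.05 and 5.10 in GFP- E6.5 cells. All 4 replicate 2 arrays were above the filter value and all 4 replicate 1 arrays below it, with a mean offset of 0.97. Fraction and stage differences lay between -0.36 and 0.01, each smaller than this offset. Actn1, the alpha-actinin of cells that are not muscle, was at 9.21 to 10.37 on the 8 arrays.

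Counts over the members were read against the same counts over all genes. Between stages in GFP+ cells 0 of the 8 tested members passed the limma threshold (background 0.0256% of genes), and 4 had an unadjusted p under 0.05 (Tnnc1, Tnni1, Actc1 and Myl7), as did 451 of all 11706 genes. These 4 were at least 1 unit higher at E7.5 within both replicate numbers, which held for 1.58% of all genes. Other markers also differed between these groups. The median stage difference in GFP+ cells was 1.77 for the extraembryonic and lateral mesoderm markers (4 of 7 tested, all above 0). It was -1.34 for the nascent mesoderm markers (0 of 5 above 0) and 0.09 for the heart progenitor markers (9 of 12 above 0). Hand1 is in both the first and the last of these lists. The part of these markers' cells in the sarcomere gene differences was not tested. Of the 8, 5 had E7.5 arrays all above the E6.5 arrays in GFP+ cells, against 11.8% of all genes. Since Tnnc1 passed the filter only through its GFP+ E7.5 arrays, its place in these counts was partly fixed by the filter, and the members were chosen with earlier results known.

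In GFP- cells the same comparison of stages gave 0 of 8 members past the limma threshold (background 0.094%) and 3 with an unadjusted p under 0.05 (Tnni1, Actc1 and Myl7), as did 759 of all genes. Of these, Actc1 and Myl7 were at least 1 unit higher at E7.5 within both replicate numbers (1.9% of all genes), and 4 of 8 members, with Tpm1 as the fourth, had E7.5 arrays all above the E6.5 arrays (13.1% of all genes). Tnnc1 was at -0.13 (SE 0.54, 95% interval -1.40 to 1.15) in this comparison. Between the same groups the median difference was 1.21 for 12 heart progenitor markers and 3.32 for the 4 tested of 7 extraembryonic and lateral mesoderm markers. It was 1.48 for 6 endothelial and blood markers and -1.80 for 8 visceral endoderm markers, with 0 of these 8 above 0. Their part in the sarcomere gene differences was not tested.

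**Figure D2:**
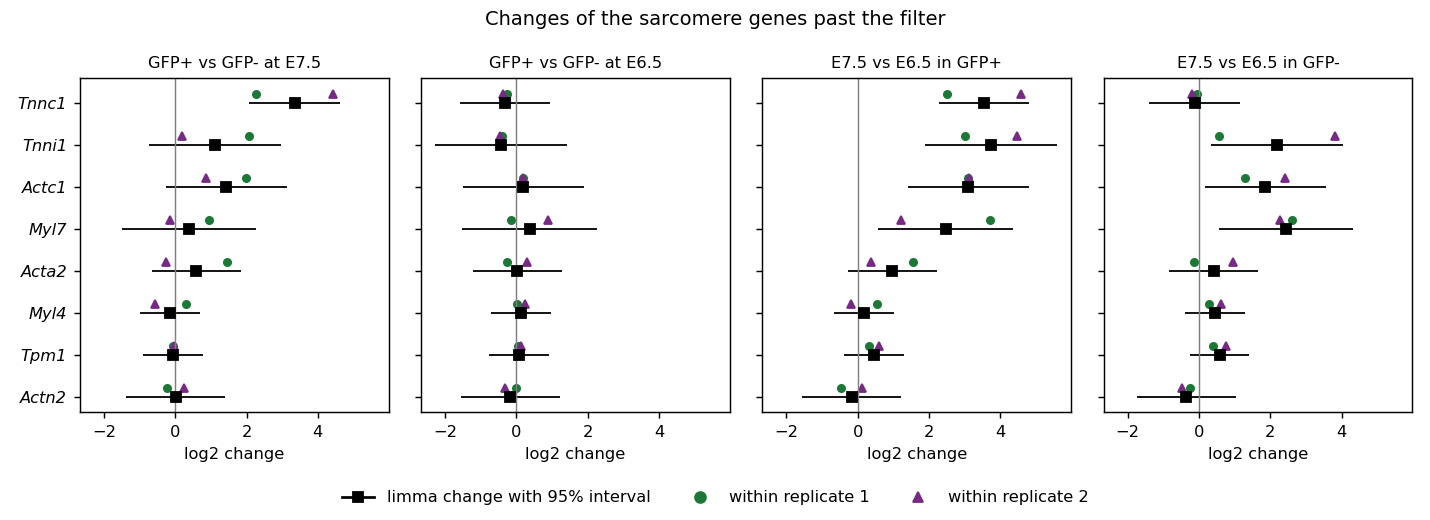
Log2 changes (horizontal axes) of the 8 tested sarcomere genes in 4 comparisons, with squares for the limma change, lines for its 95% interval, circles for the change within replicate 1 and triangles for that within replicate 2. Tnnc1 is the gene with an interval above 0 between fractions at E7.5 (2.07 to 4.62), while Tnni1, Actc1 and Myl7 have intervals above 0 between stages in both fractions. Tnnc1 passed the filter only through its GFP+ E7.5 arrays, so its interval is not independent of the filter. Intervals are from the fit without the replicate number as a block. With that block Actc1 also had an unadjusted limma p under 0.05 between fractions at E7.5.

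Between fractions at E7.5, 0 of 8 members passed the limma threshold (background 0%), and 1, Tnnc1, had an unadjusted p under 0.05, as did 282 of all genes. With the replicate number as a block these counts were 2 members (Actc1 and Tnnc1) and 755 genes, the SE of Actc1 was 0.34, and 0 members and 0 genes passed the threshold. Tnnc1 was also the 1 member at least 1 unit higher within both replicate numbers (0.384% of all genes) and the 1 whose fractions did not overlap (10.3%), but it entered the tested genes through these same GFP+ arrays, so nothing is read from these shares. The value for Actc1 was 1.43 (SE 0.72), with 1.99 and 0.87 within replicates 1 and 2, and 0.42 without GFP- E7.5 replicate 1. Tnni1 was at 1.13 (SE 0.79, 2.06 and 0.20), and -0.13 without GFP- E7.5 replicate 1. For Acta2 and Myl7 the differences were 1.44 and 0.94 within replicate 1 and -0.26 and -0.15 within replicate 2. In replicate 2 at E7.5 GFP+ and GFP- cells were close in Tnni1 (8.54 and 8.35), Myl7 (7.96 and 8.12) and Acta2 (5.95 and 6.21), and far apart in Tnnc1 (8.18 and 3.76).

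The mean of the 12 heart progenitor markers was 6.88 on GFP- E7.5 replicate 2, against 6.21 on GFP- E7.5 replicate 1. Among them Smarcd3, a chromatin factor of early heart progenitors (8.09 against 5.95), and Hand2, a regulator of heart chambers (7.47 against 5.46), were higher in replicate 2, and Hand1 (9.68 against 10.05) and Isl1 (5.46 against 6.21) were lower. In GFP+ E7.5 cells that mean was 6.42 and 6.41 in replicates 1 and 2. The 8 visceral endoderm markers averaged 6.21 in GFP- E7.5 replicate 2, against 4.85 in replicate 1, with most of that gap in Spink1 (9.41 against 3.64) and with Amn lower in replicate 2 (5.01 against 5.23), and 6 endothelial and blood markers averaged 5.95, against 6.08 in replicate 1. The 6 epithelial and epiblast markers averaged 8.09 and 7.54 in GFP+ and 8.89 and 9.08 in GFP- cells at E7.5, the 5 nascent mesoderm markers 8.52 and 8.07 in GFP+ and 6.82 and 6.91 in GFP- cells, and 4 extraembryonic and lateral mesoderm markers 7.73 and 6.71 in GFP+ and 7.42 and 8.25 in GFP- cells. Comparisons of replicate 1 with replicate 2 here cross the offset between the replicate numbers. The heart progenitor mean includes genes near the filter value, such as Nkx2-5 (3.67 and 4.42 in GFP- E7.5 replicates 1 and 2) and Mef2c (4.17 and 4.79). What part these markers' cells had in the sarcomere gene levels was not tested.

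Between fractions at E6.5, 0 of 8 members passed the limma threshold (background 0.0769%) and 0 had an unadjusted p under 0.05, as did 671 of all genes. Differences ran from -0.42 (Tnni1) to 0.37 (Myl7), 0 members had fractions that did not overlap with GFP+ higher (14.8% of all genes), and 0 were at least 1 unit higher within both replicate numbers (1.38%). The intervals were wide, as for Myl7 (-1.52 to 2.25). Visceral endoderm markers moved with this comparison, averaging 4.37 and 4.79 in GFP+ and 6.36 and 8.08 in GFP- cells.

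The interaction asks whether the fractions differed more at E7.5 than at E6.5. Tnnc1 had the largest value of the members, 3.67 (SE 0.77, 2.55 and 4.79 within replicates 1 and 2, limma adjusted p = 1.00), and was the 1 member at least 1 unit up within both replicate numbers (1.71% of all genes), a share from which nothing is read, since its GFP+ E7.5 arrays also brought it past the filter. Tnni1 was at 1.55 (SE 1.11) and Actc1 at 1.24 (SE 1.02), and Myl7 at 0.03 (SE 1.13). In all, 0 of 8 members and 0 of all genes passed (background 0%), with 1 member and 317 genes at an unadjusted p under 0.05, or 2 members (Actc1 and Tnnc1) and 761 genes with the replicate number as a block. The 95% intervals were 1.87 to 5.47 for Tnnc1, -1.07 to 4.17 for Tnni1 and -1.15 to 3.64 for Actc1, and whether these genes differ from each other in the interaction was not tested.

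Of 21 other genes of the thick and thin filaments 16 were tested, and in GFP+ cells their median stage difference was 0.05 (-0.03 for all genes) with 0 past the limma threshold in either direction. Myl1, an essential light chain of embryonic and fast skeletal muscle, was at 5.55 and 7.42 in GFP+ E7.5 cells, against 4.14 and 3.53 in GFP+ E6.5 cells, a difference of 2.66 (SE 0.60), whose size is uncertain since all 4 E6.5 arrays lay below the filter value. Myl2, the ventricular regulatory chain, was at 1.22 (SE 0.40, 1.32 and 1.11 within the replicates) between these groups. Tnnt1 and the thin filament cap gene Tmod1 were at 0.34 and 0.28 there, and the myosin heavy chain gene Myh7 at 0.05. In GFP- cells Myl1 was at 1.45 between the stages, and at E7.5 its fractions differed by 1.11 (SE 0.60).

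Of 19 genes of the Z-disc, the M-band and titin, 15 had a probe set and 6 were tested, with a median stage difference of -0.02 in GFP+ cells and 0 past the limma threshold. Titin (Ttn) was above the filter value only on GFP+ E7.5 replicate 2 (4.71), the array with the highest Tnnc1. Pdlim3, a Z-disc adaptor, was at -1.26 (SE 0.40), the chaperone gene Cryab at 0.67 (SE 0.81) and the muscle LIM protein gene Csrp3 at 0.15. Between fractions at E7.5 the related Pdlim5 and Ldb3 were at 0.82 and 0.18. Smooth muscle and non-muscle actomyosin genes (11 tested of 16) had a median of 0.16 and 0 past it, with Cald1, the gene of caldesmon, at 1.49 (SE 0.44) in GFP+ and 1.51 in GFP- cells. Myh11, smooth muscle myosin, was at 6.03 on GFP+ E7.5 replicate 2 and at 3.57 to 4.63 on the others, and Cnn2 was at 0.83 between the stages in GFP+ cells. Between fractions at E7.5 Actn1 and Myh9 were at 0.55 and 0.45. Calcium handling genes (6 tested of 12) had a median of 0.07 and 0 past it, and the largest differences were in the junction gene Jph2 (0.76, SE 0.60) and the channel genes Cacna1d (0.50) and Kcnh2 (0.23), with the natriuretic peptide gene Nppb at -0.12.

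**Figure D3:**
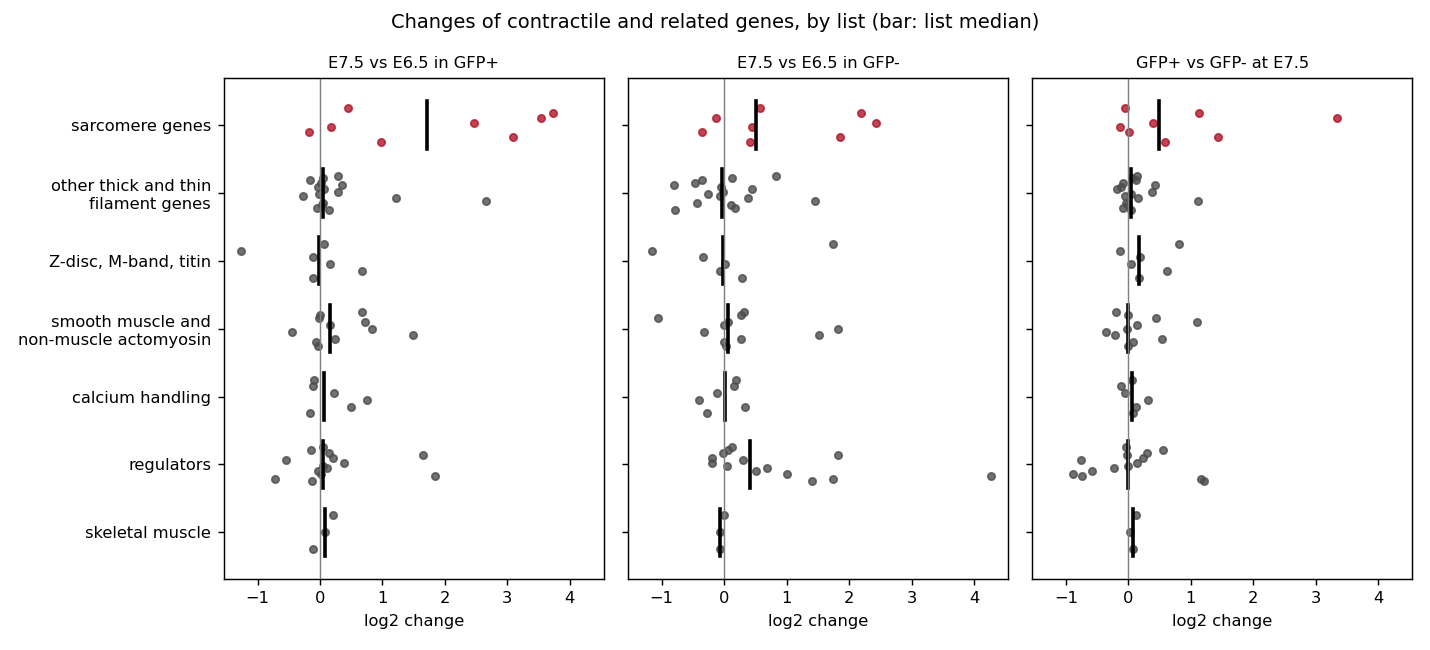
Log2 change (horizontal axes) of each tested gene in 7 lists for 3 comparisons, with a point per gene and a bar at the list's median. The sarcomere genes (top, red) include 4 points above 2 between stages in GFP+ cells, where Myl1 (2.66) is the 1 other point above 2. Sizes for Tnnc1, Actc1 and Myl1 are uncertain because their E6.5 means lay below the filter value.

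Regulators of sarcomere genes were measured next to them. Of 16, 14 were tested, with a median stage difference of 0.05 in GFP+ and 0.41 in GFP- cells and 0 past the limma threshold in either. Smarcd3 was at 1.65 (SE 0.71) in GFP+ and 1.82 in GFP- cells, and Hand1 at 1.84 (SE 0.88, 4.07 and -0.39 within the replicates) and 4.27. Gata4 and Gata6, which were already high in GFP+ cells at E6.5, were at -0.14 (SE 0.88) and -0.73 (SE 0.89) between stages there and at 1.21 and 1.16 between fractions at E7.5, where Hand2 was at -0.88. Srf, whose protein binds the CArG box, was above the filter value on all 8 arrays (7.64 to 9.20) with a stage difference of -0.15 in GFP+ cells, and its cofactor gene Myocd was above it on 3 of the replicate 2 arrays, with GFP+ E7.5 at 3.57 and 3.82. Of 7 skeletal muscle genes, Myf5, Myog, Myf6 and Pax7 were below the filter value on all 8 arrays, and Myod1, Pax3 and Ckm differed by -0.10 to 0.20 between the stages in GFP+ cells.

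With each replicate number's mean removed, the 21 pairs without Actn2 correlated at r = -0.00 to 0.95 over 8 arrays, and the 7 pairs with Actn2 at -0.95 to -0.19. The highest was Tnni1 with Actc1 (0.95), and Tnnc1 with Myl4 was near 0. Genes most like the mean of the 8 tested members' standardized values, among 507 genes with an SD of at least 1, were Cmtm3 (r = 0.98), Hsd11b2 (0.97), Smarcd3 (0.96), Prrx2 (0.95) and Efnb1 (0.94). Cmtm3 was at 5.54 and 5.70 in GFP+ E7.5, 3.82 and 5.73 in GFP- E7.5, 3.51 and 4.51 in GFP+ E6.5 and 3.22 and 4.11 in GFP- E6.5 cells. These correlations rest on 8 arrays that share stage and replicate number, and in this ranking the replicate offset was left in.

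**Figure D4:**
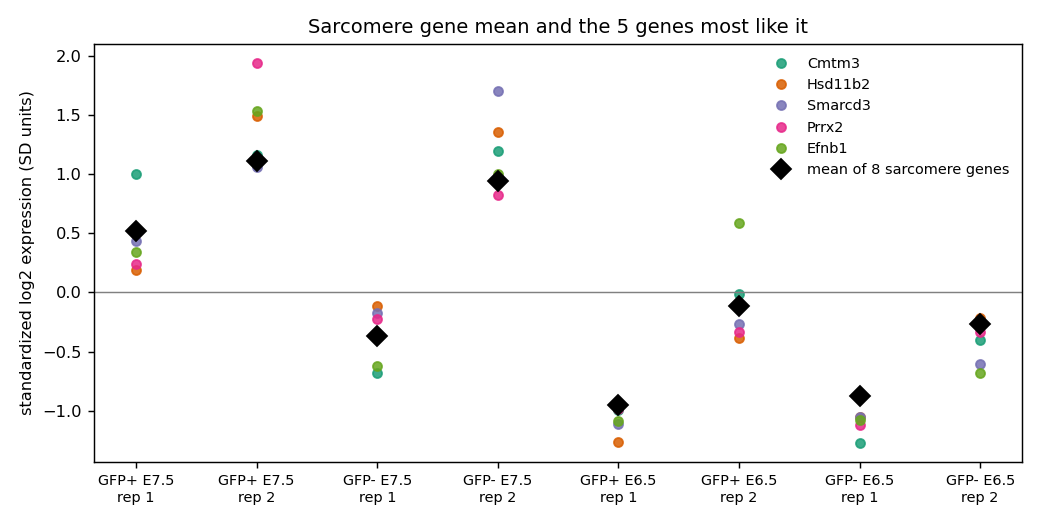
Log2 expression standardized gene by gene over the 8 arrays (vertical axis, in each gene's SD), for each array. Diamonds are the mean of the standardized values of the 8 tested sarcomere genes, and dots are the 5 genes most like it. This mean was not rescaled, so its spread is not set to 1 SD as that of each dot gene is. The offset between replicate numbers was left in. The mean is highest on GFP+ E7.5 replicate 2 (1.11) and GFP- E7.5 replicate 2 (0.94) and lowest on GFP+ E6.5 replicate 1 (-0.95).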

How the data were processed

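Cells were sorted per the labels' protocols into 50-cell samples, and cDNA was amplified for 25 PCR cycles and then hybridized to perfect-match mouse arrays from Affymetrix. The deposited values are the log2 signals of probe sets that RMA gave the authors, per the submitters' processing notes. Its version and the genome build are not given in the sources used here. Arrays give no read depth, and their number limits the precision.

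From these values, gene names were taken from probe sets with 1 symbol (28898 of 45141, 551 had several), and of several probe sets for a gene the one highest on average was used. The filter value was 4.38, on at least 2 arrays. limma 3.58.1 in R 4.3.3 was fitted on 8 arrays with a mean per group (4 residual and 3.21 prior degrees of freedom) for 5 contrasts, and was tested on simulated data. The rules of at least 1 log2 unit within both replicate numbers and of groups that do not overlap were added with the data in view. Between each of the 6 pairs of groups, arrays with the same number deviated together from the group means (r = 0.401 to 0.532), so the numbers pair the arrays. A fit with the replicate number as a block was an alternative. The SEs, intervals and p-values given are from the fit without this block unless stated. For fraction and stage differences the block lowered the SE of Actc1 (0.72 to 0.34) and Myl7 (0.80 to 0.55). It raised that of Tnnc1 (0.54 to 0.56) and Tnni1 (0.79 to 0.83). Other alternatives were no filter, the mean of all probe sets, only the arrays compared, quantile normalization of all arrays and leaving out each array. All members and all probe sets of them are reported; other lists are given by counts, with the 3 genes of largest change between stages in GFP+ cells and between fractions at E7.5 named; Tnni3, Ttn, Actb, Actg1, Myh7, Srf, Myocd and the marker genes given with values (Mesp1, Nkx2-5, Mef2c, Foxf1, Ahnak, Isl1, Spink1, Amn) were named outside this rule, after their values were seen. Members and lists were chosen with earlier results of these data known. Promoters are from RefSeq (GRCm38.p6), with windows for 9 of 9 members.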

Additional observations from a re-analysis of the deposited data

Results flagged for a closer look

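Some members had fraction or stage differences of opposite sign within both replicate numbers. For Tnnc1 the difference between GFP+ and GFP- cells was 3.35 at E7.5 (2.28 and 4.41 within replicates 1 and 2) and -0.32 at E6.5 (-0.27 and -0.38), and the stage difference was 3.54 in GFP+ cells (2.50 and 4.58) and -0.13 in GFP- cells (-0.05 and -0.21). The difference of these differences was tested as the interaction, 3.67 (SE 0.77, limma adjusted p = 1.00), and did not pass. Both negative values for Tnnc1 were smaller in size than their SE of 0.54 and came from arrays all below the filter value. The -0.13 also changed sign in some fits with 1 array left out, and Tnnc1 passed the filter only through its GFP+ E7.5 arrays. For Tnni1 the fraction difference was 1.13 at E7.5 (2.06 and 0.20) and -0.42 at E6.5 (-0.39 and -0.45), the latter smaller in size than its SE of 0.79, with an interaction of 1.55 (SE 1.11, limma adjusted p = 1.00). For Tpm1 it was -0.05 at E7.5 (-0.06 and -0.04) and 0.08 at E6.5 (0.04 and 0.12), both far below the SE of 0.36, with an interaction of -0.13 (SE 0.50, limma adjusted p = 1.00). Groups of 2 arrays were too small for a check of single outlying arrays.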

How the results depend on the processing

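No member passed the limma threshold in any of the 5 contrasts under the alternatives that kept 2 arrays a group. Over all alternatives, 465 recomputed member changes kept their sign while 47 turned. Many of the 465 could not turn. The block, no filter, only the arrays compared, and leaving out an array of a group not compared gave the same estimate as the main fit. The stage differences of Tnnc1, Tnni1, Actc1 and Myl7 in GFP+ cells kept their direction under all alternatives (lowest 1.28, for Myl7). So did the E7.5 fraction difference of Tnnc1 (lowest 2.52). Leaving out an array kept the filter set on all 8 arrays. Tnnc1 passed that filter only through its 2 GFP+ E7.5 arrays, so without either one its place, including the 2.52, was fixed by the filter. With the replicate number as a block, 30 genes passed between fractions at E6.5 (9 without it), 39 between stages in GFP- cells (11 without it), and the block changed no call of a member. With only the arrays compared 0, 0 and 4 genes passed (fractions at E6.5, stages in GFP+ and in GFP- cells), with no filter 0 between stages in GFP+ cells (3 with it), with quantile normalization of all arrays 16 between fractions at E6.5 and 26 between stages in GFP- cells, and 17 in the last when probe sets of a gene were averaged. Without 1 array the counts were 0 to 1, 0 to 3 and 3 to 10. Quantile normalization turned the signs of Myl7 (interaction, -0.03) and Actn2 (fractions at E7.5, -0.02), and averaging of probe sets those of Tpm1 (-0.03 at E6.5, 0.11 at E7.5, 0.14 in the interaction), all close to 0. Small differences also changed sign when 1 array was left out. For fractions at E7.5 these ranges were Tnni1 -0.13 to 2.38, Myl7 -0.10 to 0.88, Myl4 -0.47 to 0.19, Acta2 -0.13 to 1.31, Tpm1 -0.35 to 0.25 and Actn2 -0.64 to 0.67. For fractions at E6.5 these ranges were Actc1 -0.25 to 0.63, Myl7 -0.82 to 1.55, Myl4 -0.15 to 0.40, Acta2 -0.43 to 0.48, Tpm1 -0.08 to 0.23 and Actn2 -0.69 to 0.35. For stages in GFP+ cells these ranges were Myl4 -0.10 to 0.45 and Actn2 -0.83 to 0.48. For stages in GFP- cells these ranges were Tnnc1 -0.37 to 0.11, Acta2 -0.31 to 1.12 and Actn2 -0.88 to 0.17. For the interaction these ranges were Myl7 -1.16 to 1.21, Myl4 -0.60 to 0.07, Acta2 -0.15 to 1.28, Tpm1 -0.43 to 0.17 and Actn2 -0.47 to 0.84. The fits without 1 array had no replicate block, so a group left with 1 array was compared across the offset between replicate numbers. Within replicates 1 and 2, the fraction difference at E6.5 was 0.19 and 0.19 for Actc1, and -0.16 and 0.90 for Myl7. The part of this offset in the sign changes was not tested. With 2 arrays a group, signal near the filter value limits Tnnt2, Actn2, and the low groups of Tnnc1 and Actc1.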
